A study of Homo sapiens with 12 samples.

Results

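Mitosis and G2/M genes encode the proteins that carry a cell from the end of DNA replication through chromosome segregation and cytokinesis. The 52 genes described here were taken by symbol from the count table: mitotic cyclins and CDK1, mitotic kinases, the chromosomal passenger complex, checkpoint, kinetochore, spindle, cytokinesis and condensin genes, and 2 transcription factors. Every one of the 52 symbols was found once among the 58381 genes of the table, and all 52 were among the 15836 genes tested. They were compared between CD44 KO and CD44 WT cells of Hs578T and of MDA-MB-231, which are both established triple negative breast cancer lines.

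Cells of all 4 groups carried a doxycycline-inducible Cas9. CD44 KO cells had received guides against exons of CD44, the hyaluronan receptor, and CD44 WT cells transfection reagent only. Both were sorted on CD29 and CD44 as populations rather than single clones, and were kept in 1% serum for 24 h before RNA was extracted. Each group has 3 libraries, and since nothing in the labels says that these came from separate cultures, p-values measure only the spread between libraries. Nor do the labels name more than 1 edited and sorted population per line. Loss of CD44 therefore cannot be told apart from guide transfection, sorting or expansion of such a population.

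Cells enter mitosis when CDK1, bound to cyclin B, is switched on, and transcripts of the genes that serve mitosis accumulate in G2 under FOXM1 and under B-Myb, the product of MYBL2, together with the MuvB complex. In resting cells the related DREAM complex holds many of the same genes down. Their summed RNA in a tumor cell culture therefore follows how many cells are in late cycle as well as how much each cell makes. In bulk RNA fewer cycling cells and less RNA per cycling cell cannot be told apart.

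CD44, the targeted gene, was at 494 to 527 CPM (counts scaled to a common library size) in the Hs578T CD44 WT libraries and at 24.9 to 28.6 CPM in CD44 KO. The MDA-MB-231 libraries held 360.0 to 363 CPM in CD44 WT and 30.0 to 40.3 CPM in CD44 KO. Total counts ran from 10257586 to 19725543 per library. MDA-MB-231 CD44 WT replicate 1 stood apart: its chi-square per degree of freedom against the other 2 libraries of its group was 19.4 and 29.5, and theirs against each other was 5.65. It was the lowest of its group for 29 of the 52 genes and the highest for 15. Fold changes of single members that this library moves by over 1.5 times are also given without it where they are named. Hs578T CD44 WT replicate 3 was the highest of its group for 38 of the 52 genes. Its chi-square against the other libraries of its group was 14.1 and 9.15, and theirs against each other 4.41. Without it the median log2 fold change of the 52 genes in Hs578T was -0.16, against -0.20 with it. Of the 5 leukocyte markers 1 was tested, PTPRC, at 0.254 to 0.576 CPM in Hs578T CD44 WT and 3.21 to 4.81 CPM in CD44 KO; the summed leukocyte level was 0.902 to 1.02 CPM in CD44 WT and 4.07 to 5.29 CPM in CD44 KO. In MDA-MB-231 that sum was 0.600 to 0.891 CPM in CD44 WT and 0.339 to 1.09 CPM in CD44 KO, and both erythroid markers were at 0 in every library. Of the endothelial markers PECAM1 was at 10.6 to 14.8 CPM in Hs578T and 1.37 to 3.85 CPM in MDA-MB-231. CDH5 was at 2.47 CPM or less and VWF at 0.481 CPM or less in every library. The part of these markers in the results was not tested. Of the receptors, ESR1 was at 1.15 CPM or less and PGR at 0 in every library, and ERBB2 was at 57.4 to 101 CPM. The mesenchymal marker VIM was at 3730 CPM or more in every library, while SPARC was at 809 CPM or more in Hs578T and at 0.324 to 1.78 CPM in MDA-MB-231. FN1 was at 2960 to 5230 CPM in Hs578T and at 219 to 320 CPM in MDA-MB-231. Of the epithelial markers CDH1 was below 1 CPM throughout, KRT8 was at 270.0 to 596 CPM and KRT18 at 357 to 745 CPM. KRT19 was at 192 to 303 CPM and EPCAM at 13.7 to 22.2 CPM in MDA-MB-231, and both were below 1 CPM in Hs578T.

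As a group, the 52 genes were slightly lower in Hs578T CD44 KO than in CD44 WT, and split in MDA-MB-231. In Hs578T 49 of 52 had a log2 fold change below 0, with a median of -0.20 against -0.002 over all genes tested, of which 50.2% lay below 0. In MDA-MB-231 31 of 52 lay above 0, with a median of 0.05 against -0.01 over all genes, or 0.03 when CD44 WT replicate 1 was left out. Without that library 9 of the 52 changes in MDA-MB-231 turned sign and another 23 moved by over 1.5 times, by at most 0.24 on the log2 scale. In Hs578T no change moved by more than 0.003, but that library is not part of the Hs578T comparison, so this does not measure its firmness. Leaving out 1 Hs578T library instead gave a median of -0.22 to -0.16 in Hs578T. The changes were small: 49 of 52 were within 0.5 of 0 on the log2 scale in each line. There were 30 genes below 0 in Hs578T and above 0 in MDA-MB-231, 19 below 0 in both, 1 above 0 in both, and 2 with the opposite pattern.

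**Figure D1:**
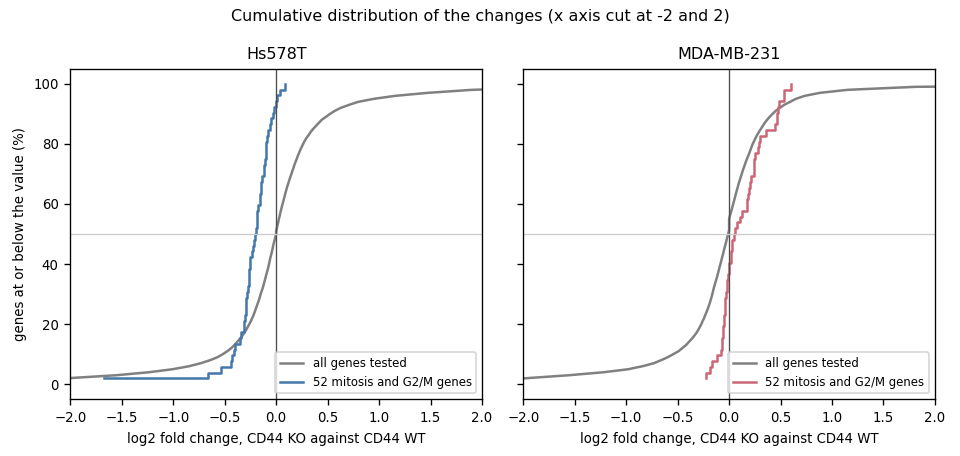
Cumulative share of genes (%, y axis) at or below each log2 fold change of CD44 KO against CD44 WT (x axis), for all genes tested (grey) and the 52 mitosis and G2/M genes (colored), in Hs578T (left) and MDA-MB-231 (right). In Hs578T the colored curve lies left of 0 for 49 of 52 genes, with a median of -0.20, and in MDA-MB-231 it crosses 50% at 0.05.

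Few single genes passed the test, edgeR's quasi-likelihood test with a limit of 0.01 on the adjusted p. In Hs578T 3 of 52 fell, NCAPH, SGO2 and CENPA, which is 5.77% where 3.86% of all genes tested fell, and 0 rose where 3.64% of all genes rose. In MDA-MB-231 5 of 52 rose, CDK1, KIF23, MYBL2, NDC80 and CCNA2, which is 9.62% where 1.97% of all genes rose, and 0 fell where 2.65% of all genes fell. An unadjusted p under 0.05 was reached by 25 of 52 genes in Hs578T, all below 0, beside 27.4% of all genes, and by 17 of 52 in MDA-MB-231, 16 above and 1 below 0, beside 23.4% of all genes. DESeq2 also gave 0 that rose in Hs578T and 0 that fell in MDA-MB-231. In this fit the count of genes passing in Hs578T lay near the background, while 49 of 52 shared 1 direction.

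The count of 3 in Hs578T was 1, NCAPH alone, without Hs578T CD44 WT replicate 1 or 3 or without Hs578T CD44 KO replicate 2 or 3, and 13 without MDA-MB-231 CD44 WT replicate 1, which enters only through the shared spread, scaling and filter. Of all genes 3.84% to 7.75% passed in the fits with 1 and 10.7% in the fit with 13, against 7.51% with every library in both directions together. The 13 were NCAPH, SGO2, CENPA, ANLN, BUB1, CCNB1, CKAP2, ECT2, FOXM1, KIF2C, MYBL2, SMC4 and UBE2C. The count was 9, of 51 tested, when Hs578T was fitted alone, beside 10.4% of all genes, 7 with DESeq2, beside 9.81%, and 6 without the filter on low counts, beside 6.70%. The count of 5 in MDA-MB-231 was 3 when any of its CD44 KO libraries was left out, beside 2.25% to 2.91% of all genes, and 1, CDK1, when that line was fitted alone, beside 2.31%, against 4.62% with every library. Leaving out CD44 WT replicate 1 kept the 5 and added ECT2, which fell.

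**Figure D2:**
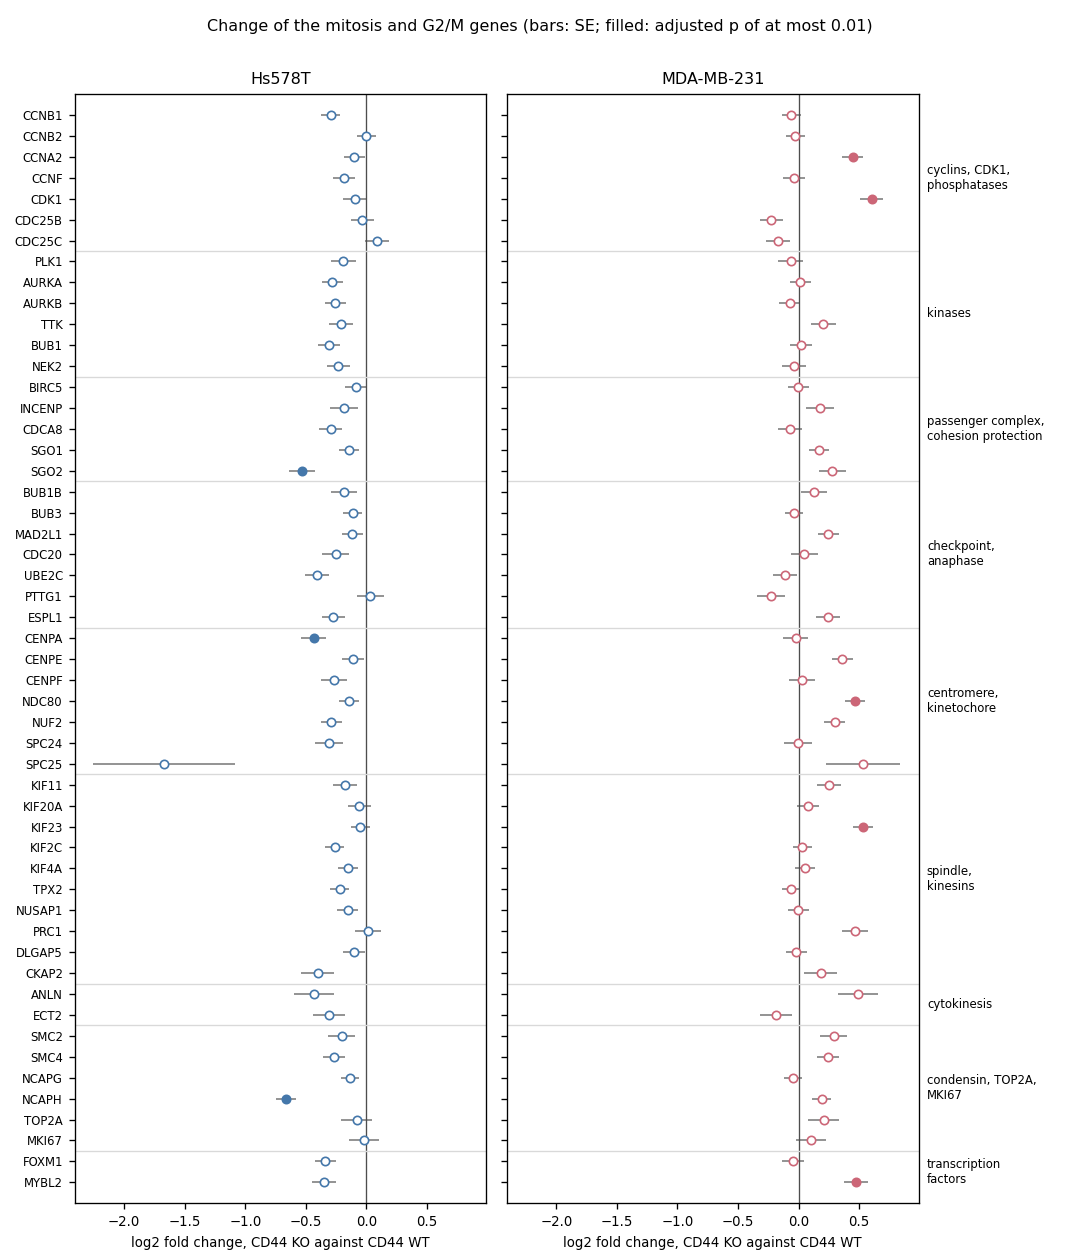
Log2 fold change of CD44 KO against CD44 WT (x axis, same scale in both panels) of each of the 52 genes, ordered by role (right margin), with bars of 1 SE and filled points for genes past the threshold of 0.01 on the adjusted p. NCAPH, SGO2 and CENPA are filled below 0 in Hs578T, and CDK1, KIF23, MYBL2, NDC80 and CCNA2 above 0 in MDA-MB-231.

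The shift was visible in the level of the group in single libraries. The mean log2 CPM over the 52 genes was 7.13, 7.10 and 7.18 in the Hs578T CD44 WT libraries and 6.96, 6.89 and 6.90 in CD44 KO. In MDA-MB-231 it was 7.17 in CD44 WT replicate 1, 7.28 in replicate 3 and 7.27 in the library without a replicate number, and 7.37, 7.33 and 7.40 in CD44 KO. On this scale the groups did not overlap in either line, and the highest Hs578T CD44 KO library lay below every library outside its group. As a share of all counts, the 52 genes took 1.05% to 1.11% in Hs578T CD44 WT and 0.904% to 0.954% in CD44 KO. In MDA-MB-231 they took 1.03% to 1.15% and 1.15% to 1.24%, so by this measure the groups of that line were not apart.

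**Figure D3:**
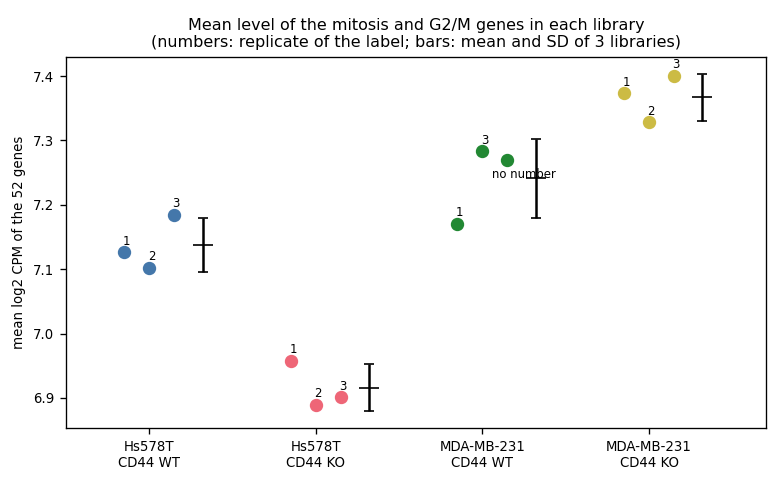
Mean log2 CPM of the 52 mitosis and G2/M genes (y axis) in each of the 12 libraries, by group (x axis), with the replicate number of each library and bars for the mean and SD of 3 libraries. The Hs578T CD44 KO libraries lie at 6.89 to 6.96, below the CD44 WT libraries at 7.10 to 7.18, and the MDA-MB-231 CD44 KO libraries at 7.33 to 7.40, above CD44 WT at 7.17 to 7.28.

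Gene by gene, all 3 CD44 KO libraries lay below all 3 CD44 WT libraries for 35 of 52 genes in Hs578T, or 67.3%, beside 18.6% of all genes tested. For 0 of 52 they all lay above, beside 18.7% of all genes. In MDA-MB-231 all CD44 KO libraries lay above for 17 of 52, or 32.7%, beside 11.8% of all genes, and below for 1, CDC25C, beside 13.7%. Most genes of the group thus separated without overlap in Hs578T although few passed the test.

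Many genes of this kind carry in their promoters a cell cycle homology region (CHR, letters TTTGAA), which MuvB complexes bind, and CCAAT boxes, which NF-Y binds. Promoters of 300 bases from RefSeq (GRCh38.p14), 250 before to 50 after the start, were at hand for 45 of the 52 genes, and were searched on both strands. TTTGAA or its complement TTCAAA was found in 28 of the 45, or 62.2%, against 15.2% of all 35116 promoters in the table. CCAAT or its complement ATTGG was found in 32, or 71.1%, against 34.6%, and both motifs in 21, or 46.7%, against 5.90%. The variant TTCGAA was found in 4 of the 45, against 1.45% of all promoters. None of these motifs contains another. These are matches of letters and not sites of binding, and the RefSeq start lay within 100 nt of the start in the count table for 29 of the 45 genes.

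The 100 bases before the start are shown for 6 genes that passed the test, the first pair lower in Hs578T CD44 KO and the rest higher in MDA-MB-231 CD44 KO, with the motifs in capitals, 5′ to 3′ on the strand of the gene:
NCAPH (chr2:96335666-96335765, plus strand): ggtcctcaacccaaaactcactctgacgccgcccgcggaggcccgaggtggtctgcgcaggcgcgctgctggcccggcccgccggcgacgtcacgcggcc
CENPA (chr2:26785956-26786055, plus strand): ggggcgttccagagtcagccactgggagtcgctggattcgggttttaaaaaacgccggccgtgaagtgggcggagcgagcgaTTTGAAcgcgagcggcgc
CDK1 (chr10:60778231-60778330, plus strand): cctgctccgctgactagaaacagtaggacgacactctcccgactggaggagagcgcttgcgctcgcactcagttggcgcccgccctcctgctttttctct
KIF23 (chr15:69414249-69414348, plus strand): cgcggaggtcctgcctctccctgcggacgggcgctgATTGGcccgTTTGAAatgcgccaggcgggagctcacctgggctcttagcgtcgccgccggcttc
CCNA2 (chr4:121823884-121823983, minus strand): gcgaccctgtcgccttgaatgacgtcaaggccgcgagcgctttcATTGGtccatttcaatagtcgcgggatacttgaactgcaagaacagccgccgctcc
MYBL2 (chr20:43667014-43667113, plus strand): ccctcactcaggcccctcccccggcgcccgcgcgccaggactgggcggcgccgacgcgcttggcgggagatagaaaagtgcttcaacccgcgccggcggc

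CENPA has a CHR 18 bases before the start, and KIF23 has one at 55 bases with a CCAAT box at 64. CDK1 has both motifs farther up, at 161 and 150 bases before the start, and NCAPH a CCAAT box at 112 bases, while MYBL2 had neither motif in the 300 bases. Of the 9 genes that passed in a CD44 KO comparison or in the difference between the lines, 5 had a CHR, beside 62.2% of the 45 genes searched. The genes that passed in Hs578T all had a CCAAT box, beside 71.1% of the 45. In SGO2 it was at the start itself, and of these genes CENPA had a CHR. The RefSeq starts of CENPA, SGO2 and NUF2 lay 21767, 16134 and 55378 nt from their starts in the count table. Of those that passed in MDA-MB-231, NDC80 had the CHR letters searched and no CCAAT box, and CCNA2 a CCAAT box but not those letters. Forms of the CHR other than TTTGAA and the variant TTCGAA were not searched, so an absence covers only these letters.

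Among the cyclins, CDK1 and its phosphatases, 6 of 7 genes lay below 0 in Hs578T and none passed, while CDK1 and CCNA2 rose in MDA-MB-231. CDK1, the kinase that starts mitosis (chr10:60778331-60794852), was at 104, 115 and 129 CPM in Hs578T CD44 WT and 108, 106 and 111 CPM in CD44 KO. MDA-MB-231 libraries held 138, 156 and 162 CPM in CD44 WT and 240.0, 223 and 229 CPM in CD44 KO. The Hs578T groups overlapped, and every MDA-MB-231 CD44 KO library lay above every CD44 WT library. The log2 fold change was 0.60 ± 0.09 (SE) in MDA-MB-231 (adjusted p = 0.000619) and -0.10 ± 0.09 in Hs578T (adjusted p = 0.551), and the call in MDA-MB-231 held in all 12 fits that left out 1 library.

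CCNA2, cyclin A2 of S phase and G2 (chr4:121816444-121823933, minus strand), was at 117, 134 and 132 CPM in MDA-MB-231 CD44 WT and 182, 171 and 169 CPM in CD44 KO. In Hs578T it was at 141, 136 and 148 CPM in CD44 WT and 144, 124 and 129 CPM in CD44 KO, with overlap. It rose by 0.44 ± 0.09 on the log2 scale in MDA-MB-231 (adjusted p = 0.00374), a call that was lost without CD44 KO replicate 1 or 2 (adjusted p up to 0.0174).

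CCNB1, cyclin B1, which activates CDK1, was at 255, 262 and 268 CPM in Hs578T CD44 WT and 222, 212 and 206 CPM in CD44 KO. Its level in MDA-MB-231 was 527, 515 and 479 CPM in CD44 WT and 482, 454 and 522 CPM in CD44 KO. The Hs578T groups did not overlap, yet the log2 fold change of -0.29 ± 0.08 did not pass (adjusted p = 0.0197), except with DESeq2, in the fit of Hs578T alone, and when replicate 1 of MDA-MB-231 CD44 WT was left out (adjusted p = 0.00766). CDC25B and CDC25C, phosphatases that activate CDK1, had log2 fold changes of -0.03 and 0.09 in Hs578T and -0.23 and -0.17 in MDA-MB-231. CCNB2 and CCNF lay between -0.19 and 0 in both lines, and CCNF at 0.03 in MDA-MB-231 without CD44 WT replicate 1.

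All 6 mitotic kinases lay between -0.31 and -0.19 in Hs578T and between -0.08 and 0.21 in MDA-MB-231. By edgeR and by DESeq2 0 of the 6 passed in either line. At an unadjusted p under 0.05 there were 5 in Hs578T, beside 27.4% of all genes, and 0 in MDA-MB-231, beside 23.4%. PLK1, which acts from mitotic entry to cytokinesis, was at 232, 225 and 261 CPM in Hs578T CD44 WT and 227, 189 and 214 CPM in CD44 KO. MDA-MB-231 cells gave 225, 242 and 206 CPM in CD44 WT and 204, 196 and 241 CPM in CD44 KO. The PLK1 groups overlapped in both lines (adjusted p = 0.246 and 0.764).

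AURKA, the kinase of centrosomes and spindle poles, was at 224, 228 and 257 CPM in Hs578T CD44 WT and 209, 186 and 187 CPM in CD44 KO. Levels in MDA-MB-231 were 323, 337 and 320.0 CPM in CD44 WT and 326, 308 and 356 CPM in CD44 KO. The Hs578T groups did not overlap, but the change of -0.28 ± 0.09 did not pass (adjusted p = 0.0395). AURKB, the kinase of the chromosomal passenger complex, was at 93.4, 95.3 and 95.3 CPM in Hs578T CD44 WT and 78.3, 76.8 and 82.8 CPM in CD44 KO. It was at 157, 141 and 126 CPM in MDA-MB-231 CD44 WT and 130.0, 136 and 137 CPM in CD44 KO. Here too the Hs578T libraries separated without passing the test (log2 fold change -0.26 ± 0.09, adjusted p = 0.0617), and those of MDA-MB-231 overlapped. The checkpoint kinases TTK and BUB1 had log2 fold changes of -0.21 and -0.31 in Hs578T and 0.20 and 0.02 in MDA-MB-231. With replicate 1 of MDA-MB-231 CD44 WT left out, the latter were 0.08 and -0.06, and BUB1 passed in Hs578T (adjusted p = 0.00699).

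Of the passenger complex subunits and the shugoshins, which protect cohesion at centromeres, all 5 lay below 0 in Hs578T and SGO2 passed. SGO2, shugoshin 2 (chr2:200510008-200583782), was at 98.7, 87.3 and 101 CPM in Hs578T CD44 WT and 69.0, 66.1 and 63.0 CPM in CD44 KO. MDA-MB-231 libraries held 53.3, 64.2 and 71.1 CPM in CD44 WT and 69.1, 74.7 and 84.6 CPM in CD44 KO. The Hs578T groups were well apart, and those of MDA-MB-231 overlapped. SGO2 fell by 0.53 ± 0.11 on the log2 scale in Hs578T (adjusted p = 0.00418), a call that was lost without Hs578T CD44 WT replicate 1 or 3 or any Hs578T CD44 KO library (adjusted p up to 0.0346), and in MDA-MB-231 its change was 0.28 ± 0.11 (adjusted p = 0.144), or 0.17 without CD44 WT replicate 1.

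BIRC5, survivin, a passenger complex subunit, was at 194, 189 and 207 CPM in Hs578T CD44 WT and 196, 173 and 185 CPM in CD44 KO. It was at 219, 195 and 180.0 CPM in MDA-MB-231 CD44 WT and 205, 185 and 203 CPM in CD44 KO. Its groups overlapped in both lines, with changes of -0.09 ± 0.09 and -0.002 ± 0.09. INCENP and SGO1 had changes of -0.18 and -0.14 in Hs578T and 0.18 and 0.17 in MDA-MB-231, and CDCA8, borealin, -0.30 and -0.07. Without MDA-MB-231 CD44 WT replicate 1 the change in that line was 0.02 for INCENP, -0.01 for CDCA8 and 0.08 for BIRC5.

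By edgeR 0 of the 7 checkpoint and anaphase genes passed in either line. At an unadjusted p under 0.05 there were 3 in Hs578T, beside 27.4% of all genes, and 2 in MDA-MB-231, beside 23.4%. In Hs578T they ran from -0.41, for UBE2C, the ubiquitin-conjugating enzyme of the anaphase-promoting complex, to 0.03, for PTTG1, securin. UBE2C was the 1 gene of the 7 that passed with DESeq2, in Hs578T, where it also passed without MDA-MB-231 CD44 WT replicate 1 (adjusted p = 0.00114). In MDA-MB-231 PTTG1 was lowest, at -0.23, or -0.07 without that library, and the checkpoint protein MAD2L1 highest, at 0.24. ESPL1, separase, had changes of -0.27 and 0.24, without overlap of the groups in either line.

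All 7 centromere and kinetochore genes lay below 0 in Hs578T, where CENPA passed, and 5 of 7 above 0 in MDA-MB-231, where NDC80 passed. CENPA, the histone H3 variant that marks centromeres (chr2:26764289-26801067), was at 53.9, 50.1 and 55.7 CPM in Hs578T CD44 WT and 44.6, 37.0 and 36.5 CPM in CD44 KO. Its MDA-MB-231 levels were 51.4, 54.2 and 48.4 CPM in CD44 WT and 51.8, 46.1 and 53.9 CPM in CD44 KO. The Hs578T groups did not overlap, and the MDA-MB-231 groups did. CENPA fell by 0.44 ± 0.10 on the log2 scale in Hs578T (adjusted p = 0.00939). This call is the least firm of those in either line: it held in 3 of the 12 fits without 1 library, being lost without any Hs578T CD44 WT library, Hs578T CD44 KO replicate 2 or 3, MDA-MB-231 CD44 WT replicate 3 or any MDA-MB-231 CD44 KO library (adjusted p up to 0.0593).

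The Ndc80 complex, which holds microtubules at the kinetochore, has 4 subunits, all among these genes. NDC80 (chr18:2571511-2616635) was at 114, 126 and 125 CPM in MDA-MB-231 CD44 WT and 167, 157 and 179 CPM in CD44 KO. In Hs578T it was at 111, 112 and 115 CPM in CD44 WT and 108, 103 and 95.5 CPM in CD44 KO. It rose by 0.46 ± 0.08 in MDA-MB-231 (adjusted p = 0.0021), a call lost without CD44 KO replicate 3 (adjusted p = 0.0123), and its change in Hs578T was -0.14 ± 0.08 (adjusted p = 0.287).

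NUF2, the partner of NDC80 (chr1:163266576-163355764), was at 71.4, 71.6 and 70.8 CPM in Hs578T CD44 WT and 57.1, 63.2 and 54.4 CPM in CD44 KO. MDA-MB-231 cells gave 69.6, 71.6 and 76.9 CPM in CD44 WT and 82.2, 89.4 and 96.5 CPM in CD44 KO. Its groups were apart in both lines and in opposite directions, with changes of -0.29 ± 0.09 and 0.30 ± 0.09 that did not pass within either line (adjusted p = 0.0415 and 0.046).

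SPC24 had changes of -0.31 and -0.01, the latter (MDA-MB-231) being 0.12 without CD44 WT replicate 1. SPC25, the fourth subunit, was barely counted, with 6, 3 and 4 counts in the Hs578T CD44 WT libraries and 1, 1 and 2 in CD44 KO. It had 10, 14 and 11 counts in MDA-MB-231 CD44 WT and 20, 24 and 14 in CD44 KO. Scaled by depth this was 0.247 to 0.416 CPM in Hs578T CD44 WT, 0.0617 to 0.171 CPM in CD44 KO, and 0.857 to 1.14 against 1.27 to 1.69 CPM in MDA-MB-231. Every CD44 KO library thus lay below CD44 WT in Hs578T and above it in MDA-MB-231, on few counts. The ratio of CD44 KO to CD44 WT from summed counts was 0.292 in Hs578T (exact 95% interval 0.0694 to 0.946, counting error only) and 1.43 in MDA-MB-231 (0.924 to 2.24). The fitted changes of -1.67 ± 0.58 and 0.53 ± 0.31 depend on the prior count at this depth and did not pass (adjusted p = 0.0972 and 0.324).

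Of the 10 spindle and kinesin genes, 9 lay below 0 in Hs578T and 7 above 0 in MDA-MB-231, where KIF23 rose. KIF23, the kinesin of the centralspindlin complex at the spindle midzone (chr15:69414246-69448427), was at 154, 177 and 179 CPM in MDA-MB-231 CD44 WT and 253, 238 and 248 CPM in CD44 KO. In Hs578T it was at 150.0, 152 and 158 CPM in CD44 WT and 154, 140.0 and 149 CPM in CD44 KO. It rose by 0.53 ± 0.08 on the log2 scale in MDA-MB-231 (adjusted p = 0.000571), in all 12 fits without 1 library, and its groups overlapped in Hs578T. PRC1, which bundles midzone microtubules, had changes of 0.01 and 0.46. Of its exonic bases, 57.6% are shared on the same strand with a second gene of the table, and fragments in shared bases were not counted, so its level is a lower bound. The other members shared no exonic base with another gene of their strand, apart from BUB1B at 10.2% and CENPA at 6.96%.

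For cytokinesis, ANLN, anillin of the contractile ring, had large but uneven changes. It was at 360.0, 364 and 387 CPM in Hs578T CD44 WT and 277, 270.0 and 278 CPM in CD44 KO. Levels in MDA-MB-231 were 330.0 CPM in CD44 WT replicate 1, 591 and 637 CPM in the other CD44 WT libraries and 744, 718 and 722 CPM in CD44 KO. The groups did not overlap in either line, and MDA-MB-231 CD44 WT replicate 1 lay far below the other libraries of its group. The changes of -0.43 ± 0.16 and 0.49 ± 0.16 did not pass (adjusted p = 0.0976 and 0.0773), and without MDA-MB-231 CD44 WT replicate 1 they were -0.43, which passed (adjusted p = 0.000244), and 0.25, which did not (adjusted p = 0.0356). ECT2, the exchange factor that activates RhoA at the midzone, had changes of -0.31 and -0.19, and without that library it fell in both lines (-0.31, adjusted p = 0.00264, and -0.38, adjusted p = 0.00203). It also fell in Hs578T fitted alone.

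Among condensin subunits, TOP2A and MKI67, all 6 genes lay below 0 in Hs578T, and NCAPH had the clearest change of the whole group. NCAPH, the kleisin subunit of condensin I (chr2:96335787-96373845), was at 117, 119 and 121 CPM in Hs578T CD44 WT and 79.1, 69.7 and 76.3 CPM in CD44 KO. MDA-MB-231 libraries held 159, 167 and 171 CPM in CD44 WT and 201, 185 and 181 CPM in CD44 KO. It was lower in every Hs578T CD44 KO library and higher in every MDA-MB-231 CD44 KO library. NCAPH fell by 0.67 ± 0.08 on the log2 scale in Hs578T (adjusted p = 5.29e-05), in all 12 fits without 1 library, and its change in MDA-MB-231 was 0.19 ± 0.08 (adjusted p = 0.157). The other condensin subunits SMC2, SMC4 and NCAPG had changes of -0.20, -0.27 and -0.13 in Hs578T, and SMC4 passed there without MDA-MB-231 CD44 WT replicate 1 (adjusted p = 0.00906).

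TOP2A, topoisomerase II alpha, which untangles sister chromatids, was at 965, 907 and 912 CPM in Hs578T CD44 WT and 859, 930.0 and 843 CPM in CD44 KO. In MDA-MB-231 it was at 598, 884 and 953 CPM in CD44 WT and 984, 896 and 933 CPM in CD44 KO, with replicate 1 of CD44 WT again lowest. The groups overlapped in both lines, with changes of -0.08 ± 0.13 and 0.21 ± 0.13, the second of which was 0.03 without that library. MKI67, the Ki-67 antigen used to count cycling cells, was at 429, 419 and 437 CPM in Hs578T CD44 WT and 412, 481 and 371 CPM in CD44 KO. It was at 495, 411 and 472 CPM in MDA-MB-231 CD44 WT and 595, 471 and 415 CPM in CD44 KO. Its groups overlapped in both lines, and its changes were -0.02 ± 0.12 and 0.10 ± 0.12, or 0.16 in MDA-MB-231 without CD44 WT replicate 1.

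The transcription factors FOXM1 and MYBL2 both lay below 0 in Hs578T, and MYBL2 rose in MDA-MB-231. FOXM1 was at 310.0, 275 and 294 CPM in Hs578T CD44 WT and 257, 214 and 223 CPM in CD44 KO. Its MDA-MB-231 levels were 312, 309 and 278 CPM in CD44 WT and 297, 278 and 295 CPM in CD44 KO, with overlap. The Hs578T groups did not overlap, but the change of -0.34 ± 0.09 did not pass (adjusted p = 0.0165), except with DESeq2 and without MDA-MB-231 CD44 WT replicate 1 (adjusted p = 0.00809).

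MYBL2 (chr20:43667019-43716496) was at 268, 260.0 and 284 CPM in Hs578T CD44 WT and 213, 200.0 and 224 CPM in CD44 KO. In MDA-MB-231 it was at 201, 155 and 155 CPM in CD44 WT and 237, 238 and 236 CPM in CD44 KO. No group overlapped the other in either line, and the directions were opposite. MYBL2 rose by 0.48 ± 0.10 in MDA-MB-231 (adjusted p = 0.00616). This call was lost without Hs578T CD44 KO replicate 1, MDA-MB-231 CD44 WT replicate 3, the unnumbered CD44 WT library or any MDA-MB-231 CD44 KO library (adjusted p up to 0.0353). In Hs578T its change was -0.35 ± 0.10 (adjusted p = 0.0257), which passed with DESeq2, with Hs578T fitted alone, and when replicate 1 of MDA-MB-231 CD44 WT was left out (adjusted p = 0.00152).

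**Figure D4:**
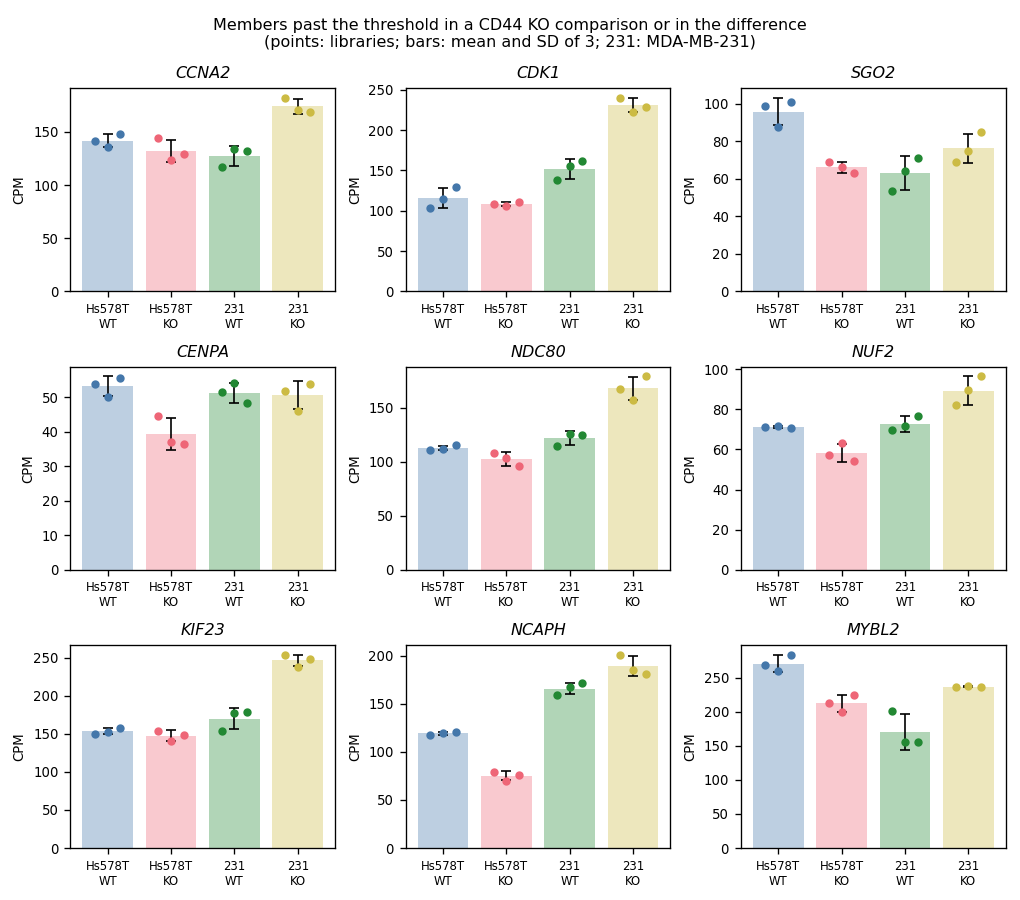
CPM (y axis, from 0) of the 9 genes past the threshold in a CD44 KO comparison or in the difference between the lines, in each library (points), with bars for the mean and SD of 3 libraries in each group (x axis). NCAPH, SGO2 and CENPA are lower in the Hs578T CD44 KO libraries, and CDK1, KIF23, NDC80, CCNA2 and MYBL2 higher in those of MDA-MB-231.

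To ask whether CD44 KO differed from CD44 WT alike in both lines, the change in Hs578T minus that in MDA-MB-231 was tested. For 48 of 52 genes it was below 0, with a median of -0.30 against 0.02 over all genes, and 8 passed with a negative difference, or 15.4%, where 1.79% of all genes did. None passed with a positive difference, where 2.33% of all genes did. The 8 were NCAPH (-0.86 ± 0.11, adjusted p = 0.000179), MYBL2, CDK1, NDC80, SGO2, KIF23, NUF2 and CCNA2. An unadjusted p under 0.05 was reached by 26 of 52, all below 0, beside 24.6% of all genes. DESeq2 gave 12, all negative, beside 7.45% of all genes in both directions together. The count was 2 to 5 when any Hs578T library was left out, beside 2.52% to 4.47% of all genes. It was 5 without MDA-MB-231 CD44 WT replicate 3 (2.89%), and 4 and 3 without MDA-MB-231 CD44 KO replicates 2 and 3 (2.72% and 3.37%). With every library 4.12% of all genes passed in both directions together.

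The genes that passed were also set beside their chromosomal neighbours. For each gene, the median log2 fold change of the 20 nearest tested genes, 10 on each side, was taken. Over all genes tested this median had quartiles of -0.089 and 0.082 in Hs578T and -0.098 and 0.056 in MDA-MB-231. The neighbours of CDK1, from 52230742 to 63625123 on chromosome 10, had a median of 0.51 in MDA-MB-231, and 6 of the 20 rose. As few as 0.385% of all genes tested had a neighbour median that high. Around KIF23, CCNA2 and NDC80 the median was 0.39, 0.33 and 0.32, as high as for 1.96%, 2.99% and 3.20% of all genes, and 3, 0 and 0 of the 20 rose. MYBL2 was the exception, at -0.15, and its own change exceeded that of its neighbours by 0.63. MAD2L1 is itself a neighbour of CCNA2 on chromosome 4.

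In Hs578T the neighbours of CENPA, NCAPH and SGO2, all on chromosome 2, had medians of -0.38, -0.24 and -0.19, as low as for 1.67%, 5.99% and 10.3% of all genes, and 5, 3 and 0 of the 20 fell. CENPA, at -0.44, differed from its neighbours by -0.06, NCAPH by -0.43 and SGO2 by -0.34. Over the whole group the neighbours had a median of 0.01 in Hs578T, and 50 of 52 genes lay below their neighbours, with a median difference of -0.22. In MDA-MB-231 the neighbours' median was -0.01, and 37 of 52 genes lay above theirs, with a median difference of 0.10. The downward direction of the group in Hs578T was thus as large relative to neighbouring genes as without them, whereas 4 of the 5 genes that rose in MDA-MB-231 exceeded their neighbours by 0.15 or less. The part of chromosomal position in these changes was not tested.

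**Figure D5:**
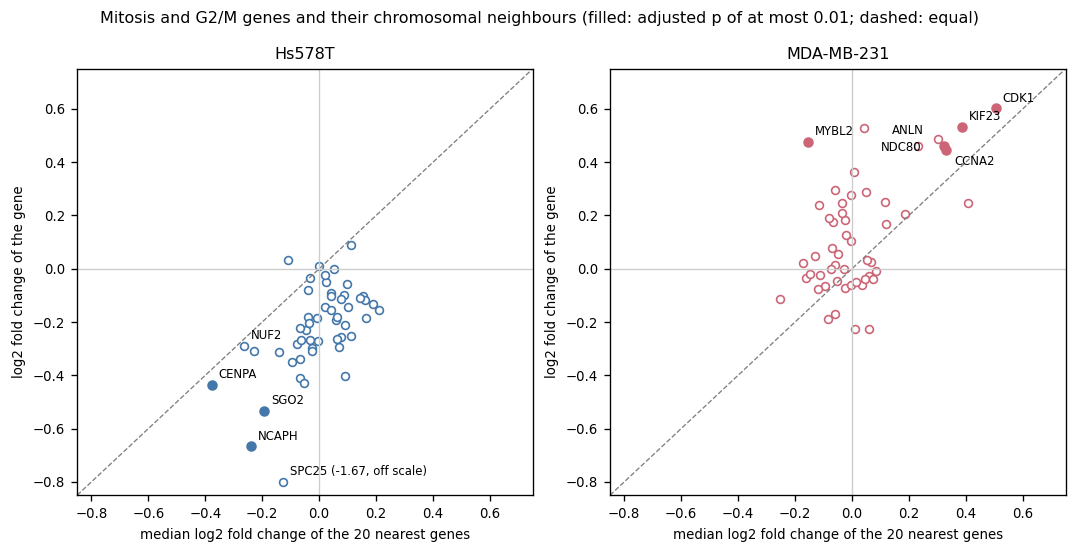
Log2 fold change of each of the 52 genes (y axis) against the median of its 20 nearest tested genes (x axis) in Hs578T (left) and MDA-MB-231 (right), with filled points for genes past the threshold of 0.01 on the adjusted p and a dashed line where both are equal. CDK1, KIF23, NDC80 and CCNA2 lie close to the line in MDA-MB-231, with neighbour medians of 0.32 to 0.51, and MYBL2 far above it. SPC25 is drawn at the lower edge in Hs578T, its change being -1.67.

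The WT cells of the lines also differed in these genes. Between Hs578T CD44 WT and MDA-MB-231 CD44 WT 17 of 52, or 32.7%, were lower in Hs578T, beside 29.4% of all genes, and 11, or 21.2%, were higher, beside 32.2%. With a log2 fold change of at least 1 required as well, 2 of 52 passed, beside 36.7% of all genes. The lower genes with the largest changes were SPC25 (-1.53), BUB3 (-1.37), a checkpoint protein, and UBE2C (-0.97). The higher ones were ESPL1 (0.86), TTK (0.84) and NEK2 (0.74), a centrosome kinase. Per kilobase of exons, the group's median level was 34.5 CPM in Hs578T CD44 WT and 42.6 CPM in MDA-MB-231 CD44 WT, against 4.20 and 3.99 CPM over all genes tested. On that scale TPX2, a spindle assembly factor, was highest in Hs578T CD44 WT, at 192 CPM, and CDC20, the activator of the anaphase-promoting complex, in MDA-MB-231 CD44 WT, at 247 CPM. SPC25 was lowest in both, at 0.181 and 0.538 CPM.

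Other cell cycle lists were counted in the same way. Of 49 tested genes on a second G2/M and mitosis list, 44 lay below 0 in Hs578T, with a median of -0.17. By edgeR 0 passed, where 3.86% of all genes fell and 3.64% rose. An unadjusted p under 0.05 was reached by 16, beside 27.4% of all genes. The MDA-MB-231 median of the list was 0.05, and 1 gene rose, where 1.97% of all genes did: ZWINT, a kinetochore protein (0.48, adjusted p = 0.00731). HMMR, a hyaluronan-binding spindle protein on that list, was at 131, 135 and 152 CPM in Hs578T CD44 WT and 132, 138 and 121 CPM in CD44 KO. In MDA-MB-231 it was at 18.9, 23.9 and 24.7 CPM in CD44 WT and 26.1, 24 and 25.3 CPM in CD44 KO. The Hs578T groups of HMMR overlapped, as did those of MDA-MB-231, and neither change passed (-0.09 ± 0.10 and 0.16 ± 0.11).

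Of 45 G1/S and DNA replication genes, 41 lay below 0 in Hs578T, with a median of -0.25, and 4 fell, where 3.86% of all genes did. The 3 with the largest changes were RRM2, a subunit of ribonucleotide reductase (-0.58, adjusted p = 0.00389), CHAF1A (-0.52, adjusted p = 0.00715) and ORC1 (-0.52, adjusted p = 0.00746). In MDA-MB-231 the median was 0.09, and MCM10 (0.58), GINS4 (0.47) and LIG1 (0.45) rose, where 1.97% of all genes did. The reductase subunits RRM2 (-0.62, adjusted p = 0.00332) and RRM1 (-0.49, adjusted p = 0.000664) fell in MDA-MB-231, where 2.65% of all genes did. RRM2 thus fell in both lines. Its mean was 210.0 ± 34.5 CPM in Hs578T CD44 WT and 140.0 ± 11.1 CPM in CD44 KO, and 409 ± 43.3 against 265 ± 25.7 CPM in MDA-MB-231 (SD, n = 3).

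Of 12 MuvB, DREAM and RB family genes, 1 fell in Hs578T, where 3.86% of all genes did: TFDP1, the partner of E2F factors (-0.43, adjusted p = 0.00718). In MDA-MB-231 1 rose, where 1.97% of all genes did: E2F5 (0.75, adjusted p = 0.00283). Of 13 tested CDK inhibitors and p53 targets, 7 lay below 0 in Hs578T and 5 in MDA-MB-231, with medians of -0.01 and 0.05. In Hs578T 2 rose, FAS (0.90, adjusted p = 0.00225) and GADD45A (0.55, adjusted p = 0.00776), where 3.64% of all genes did. CDKN1A, the CDK inhibitor p21, rose in MDA-MB-231 (0.71, adjusted p = 0.004), from 43.2 ± 3.73 to 70.7 ± 15.2 CPM, and in Hs578T its change was 0.55 (adjusted p = 0.0122). By edgeR 0 of 15 genes of the anaphase-promoting complex and 0 of 12 cohesin genes passed in either line. Their medians were 0.03 and -0.10 in Hs578T, with 1 and 4 genes at an unadjusted p under 0.05, beside 27.4% of all genes. In MDA-MB-231 the medians were -0.01 and 0.14, with 2 and 2 genes, beside 23.4%.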

How the data were processed

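RNA of 12 libraries, 3 in each of 4 groups, was sequenced as 50 bp stranded read pairs. The authors aligned them with HISAT2 2.1.0 to GRCh38 and counted fragments with featureCounts 1.6.2 on GENCODE 28. The deposited values are whole-number counts per gene, not normalized, from pairs with mapping quality of at least 10 and not from fragments that overlap several genes. The name of 1 MDA-MB-231 CD44 WT column stands in the labels of 2 replicates, so it was given its group but no number.

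Genes over 1 CPM in at least 2 libraries were tested, without those under 300 nt of exons (the methods word this limit the other way round, which would remove the 52 genes), with edgeR 4.0.16 (R 4.3.3): TMM factors, group means, legacy quasi-likelihood fit, Benjamini-Hochberg over 15836 genes, called at 0.01 or less. CPM are on the TMM scale, and single-library log2 CPM use a prior count of 2. The SE was taken from the fold change and F. On simulated counts for the Hs578T comparison, 39 of 50 genes at a log2 change of -2, 34 at -1, 33 at 1 and 46 at 2 were called, and 4 of 15636 unchanged genes. The bar that this simulation had to pass was set again after a stricter one was missed.

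The members and gene lists were chosen with earlier results of these data known. Values in every library are given for 10 members chosen by role, those called, and the 5 with the largest change in each line; elsewhere for HMMR, and of each other list up to 3 called genes per line and direction. Other members named with a fold change were chosen after their values were seen. Alternatives were DESeq2 1.42.0, other scaling, filters, thresholds and fits, replicate blocks, and each library left out. The comparison with neighbouring genes and a fit without the unnumbered library were added after seeing the data. Promoters are from RefSeq.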

Additional observations from a re-analysis of the deposited data

Results flagged for a closer look

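For 8 genes the difference between the lines was itself past the threshold (change in Hs578T minus change in MDA-MB-231, log2 scale, edgeR, Benjamini-Hochberg over all genes tested). NCAPH differed by -0.86 (adjusted p = 0.000179) and MYBL2 by -0.83 (adjusted p = 0.0015), and both calls held in all 12 fits without 1 library. CDK1 differed by -0.70 (adjusted p = 0.00322), a call lost without any Hs578T CD44 KO library (adjusted p up to 0.0119). NDC80 differed by -0.61 (adjusted p = 0.0039), lost without Hs578T CD44 WT replicate 1 or 2, Hs578T CD44 KO replicate 2 or 3, or MDA-MB-231 CD44 KO replicate 3 (adjusted p up to 0.0175). SGO2 differed by -0.81 (adjusted p = 0.00404), lost without Hs578T CD44 WT replicate 1, Hs578T CD44 KO replicate 2 or 3, MDA-MB-231 CD44 WT replicate 3, or MDA-MB-231 CD44 KO replicate 2 or 3 (adjusted p up to 0.0185).

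KIF23 differed by -0.58 (adjusted p = 0.00441), lost without any Hs578T CD44 WT library, Hs578T CD44 KO replicate 2 or 3, or any MDA-MB-231 CD44 KO library (adjusted p up to 0.0164). NUF2 differed by -0.59 (adjusted p = 0.00787), lost in 8 of the 12 such fits: without any Hs578T CD44 WT library, Hs578T CD44 KO replicate 1 or 3, MDA-MB-231 CD44 WT replicate 3, or MDA-MB-231 CD44 KO replicate 2 or 3 (adjusted p up to 0.0289). CCNA2 differed by -0.55 (adjusted p = 0.00976) and kept its call in 1 of the 12, the fit that left out replicate 1 of MDA-MB-231 CD44 WT (adjusted p up to 0.033 elsewhere). Groups of 3 libraries are too small for a test of single outlying libraries.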

How the results depend on the processing

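The median change of the group kept its sign in every alternative that was run: leaving out each library gave -0.22 to -0.16 in Hs578T and 0.03 to 0.10 in MDA-MB-231. Relative to the 20 nearest tested genes it was 0.10 in MDA-MB-231, against 0.05 without them. Counts of genes that passed were less stable, and so was the share of all genes that passed, given in brackets. In Hs578T (3, 7.51%) they were 7 with DESeq2 (9.81%), 6 without the filter on CPM (6.7%) and 9 with the line fitted alone (10.4%). They were 11 at an adjusted p of at most 0.05 (14.2%), 0 at a log2 fold change of at least 1 (4.7%), and 1 to 13 leaving out 1 library (3.84% to 10.7%). In MDA-MB-231 (5, 4.62%) they were 7 with DESeq2 (7.19%), 1 with the line fitted alone (2.31%) and 8 at 0.05 (9.59%). They were 0 at a log2 fold change of at least 1 (2.07%) and 3 to 6 leaving out 1 library (2.25% to 4.83%). For the difference (8, 4.12%) they were 12 with DESeq2 (7.45%) and 13 at 0.05 (over 10%). They were 0 at a log2 difference of at least 1 (2.96%), and 2 to 9 leaving out 1 library (2.52% to about 5%). Between the CD44 WT groups (28, 61.5%) they were 2 at a log2 fold change of at least 1 (36.7%), and 23 to 31 leaving out 1 library (55.3% to 62.3%). The cause of these shifts was not tested, apart from the thresholds, which act by construction.

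Deviations from group means correlated at -0.115 to 0.164 between libraries with the same replicate number. The column names also carry consecutive numbers, which put 1 library of each group in each set. By these the correlations ran from -0.00115 to 0.164, all but the lowest above 0. Whether either numbering marks shared handling was not tested. With the replicate number as a block and without the unnumbered library, 3 passed in Hs578T (6.79% of all genes) and 2 in MDA-MB-231 (2.75%). For the difference 6 passed (2.97%), and between the CD44 WT groups 26 (55.9%). With the consecutive sets as a block these counts were 4 (8.24%), 5 (5.2%), 9 (4.69%) and 28 (63.1%). Over 47 single-gene results, 1050 outcomes under the alternatives kept their side of the threshold, 97 lost a call, 18 gained one and 0 reversed. Only the calls themselves, 3 in Hs578T, 5 in MDA-MB-231 and 8 in the difference, could lose one. Most of the 47 results were not called, so the 1050 do not measure how firm the calls were. For scarce genes such as SPC25 depth limits what can be seen.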

Other observations

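After group means were subtracted, 5 genes outside the group followed its mean log2 CPM most closely over the 12 libraries: TP53TG1 (Pearson's r = 0.93), REEP5 (0.92), RACGAP1 (0.92), TMEM19 (0.91) and ZNF165 (0.91). RACGAP1 is the partner of KIF23 in centralspindlin. These r describe how 12 libraries that share groups, depth and scaling vary around their group means, and TP53TG1 and ZNF165 were at 2.96 and 2.29 CPM on average, where counting error is large. Of the 52 genes themselves, 17 had an r above 0.7 with the mean they belong to, led by KIF23 (0.89) and CCNA2 (0.83), and 11 had an r below 0, among them AURKB (-0.50), MYBL2 (-0.47) and MKI67 (-0.29).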
